A study of Mus musculus with 3 samples.

Results

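The data come from ChIP-seq, the sequencing of DNA pulled down together with a bound protein, here the transcription factor GLI3 in forelimb buds of mouse embryos at E10.5 (32-35 somites). The 3 libraries were 2 ChIP replicates and 1 input, chromatin sequenced without immunoprecipitation, and each reaction used 2 litters of limb buds from mice of a mixed strain background. All 3 libraries carry the genotype label wild type, although the series describes an endogenous Gli3 allele with a FLAG tag (Gli3 3XFLAG, tagged at the N-terminus), through which GLI3 was pulled down. No untagged or Gli3 mutant ChIP was among the 3 libraries, and whole limb buds were used, so that mesenchyme, ectoderm, vessels and blood all contributed chromatin. The deposited peak list, taken here as a call on both replicates together although it does not say so, holds 17149 regions without values per replicate, and the exact depth of each library is not known here, beyond a minimum that the methods state.

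Described here are the promoter peaks without a CpG island. They were chosen by position and by DNA sequence alone, and not by how strongly they were enriched. A peak belonged to them when its summit, the point of highest enrichment, lay within 1 kb of a TSS, the start of a transcript of a protein-coding gene on an autosome (GENCODE M21, mm10), and when the span reaching 2 kb before and 1 kb past that TSS was touched by no 500 bp window with both a GC share of 0.55 or more and an observed/expected CpG ratio above 0.65. Divergent promoters, with the TSS of another gene on the opposite strand within 1 kb, were left out. Of the 16854 autosomal peaks, 7660 had a summit within 1 kb of a protein-coding TSS. Among these, 782 lay at divergent promoters, 6526 at promoters with a CpG island and 352 at promoters without one. The 352 peaks lay at 306 genes.

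GLI3 is a zinc finger transcription factor of the Hedgehog pathway. It is processed to a repressor in cells without Hedgehog signal, and in the limb bud this repressor restrains Hedgehog target genes outside the reach of Sonic hedgehog from the posterior margin. GLI proteins recognise the sequence GACCACCCA. CpG islands are stretches of promoter DNA that keep their CpG dinucleotides, and they are typical of housekeeping and developmental genes, whereas promoters without an island more often belong to genes used in particular tissues.

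The lack of an island depended on the criterion. By a more lenient one (windows of 200 bp, a GC share of 0.5 or more and a ratio above 0.6), 273 of the 352 peaks (77.6%, 95% Wilson interval 72.9 to 81.6%) had an island in the same span, and 79 had none. The members are therefore mostly promoters of intermediate CpG content. Wilson intervals here and below cover counting error over peaks only, since peaks of 1 list are not replicates.

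A match to the GLI consensus with at most 1 mismatch was found in 82 of the 352 members, so most members held none. The matches of the highest-ranked members are printed as examples. Of the 15 highest-ranked members, 6 held a match to the consensus with at most 1 mismatch within 250 bp of the summit. For each, the match closest to the consensus is printed 5′ to 3′ on the strand of the match, from the GRCm38.p6 genome (mm10). Capitals mark the 9 bases aligned with the consensus, and 10 bases stand to either side.
Tmem119: gactatgccgGGCCACCCAcagtcccacc
Calml4: tggacagctgGCCCACCCAcaggcttggg
Il17rd: aaagccttagGACCACACAgggagcagtg
Frem1: aatcctgcagGACCACACAgttggcatcc
Col11a1: ctcttgtccaGCCCACCCAcagcatgaag
Haghl: agggaacgagGTCCACCCAggtctggtat

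The Tmem119 match (chr5:113800511-113800539, plus strand) was intergenic, 9 bp upstream of the TSS of this gene on the minus strand and 37 bp from the summit. The Calml4 match (chr9:62858378-62858406, plus strand) lay in an intron, 258 bp downstream of the TSS. At Il17rd the match (chr14:27068068-27068096, minus strand) was also intronic, 685 bp downstream of an internal start. The Frem1 match (chr4:83021323-83021351, minus strand) lay 235 bp upstream of an internal start, within an intron of a longer transcript. The matches at Col11a1 (chr3:114030546-114030574, plus strand) and Haghl (chr17:25785419-25785447, minus strand) fell in untranslated exon sequence, 20 bp and 107 bp downstream of the TSS. In all 6 the difference from the consensus was a single base.

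A second set shows the exact consensus, which was found in 12 members. Of the 10 highest-ranked of these, 8 are printed in the same way, with the exact match in capitals.
Stra6l: gtggtcccagGACCACCCAcccccagctg
Plaur: ctagctcccaGACCACCCAggccccgcca
Zfp13: gatctcactgGACCACCCAgtaggcacca
Tead1: gtggactggaGACCACCCAaagagcaagg
Tcf20: actcgcagcaGACCACCCActgccccctc
Lipe: aaccctcacaGACCACCCAggatcaaaga
Saa2: ggagggcaggGACCACCCAggtcgccact
Zfp933: gcgtccctcaGACCACCCActactaactt

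Their positions were chr4:45848718-45848746 for Stra6l, chr7:24463136-24463164 for Plaur, chr17:23599359-23599387 for Zfp13, chr7:112741473-112741501 for Tead1, chr15:82911407-82911435 for Tcf20, chr7:25398351-25398379 for Lipe, chr7:46752013-46752041 for Saa2 and chr4:147848305-147848333 for Zfp933. Those of Tead1, Tcf20 and Zfp933 read on the plus strand and the other 5 on the minus strand. The matches at Zfp13 and Zfp933 fell in untranslated sequence, the match at Lipe in a coding exon, and the other 5 in introns of a protein-coding gene. The window at Saa1 (chr7:46742772-46742800, plus strand), a further exact member, printed the same 29 bases as Saa2. These neighbouring serum amyloid A genes are near-identical copies, so the assignment of reads to either is uncertain. The Lipe match lay 12 bp from its summit and the Plaur match 13 bp, whereas the Zfp933 match lay 206 bp away.

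The members with an exact site were spread over the list. The highest-ranked exact member was Stra6l, a retinol-binding protein receptor relative, at rank 1525 of the list and a listed FDR of 0. Plaur, the urokinase receptor, followed at rank 2392, and Zfp13, a zinc finger protein, at rank 3085. Of the 12 exact members, 4 had an FDR under 0.05, against 131 of all 352 members. Tead1, a transcription factor of the Hippo pathway, stood at rank 7599 with an FDR of 0.0704. Lipe, hormone-sensitive lipase, ranked below 10000.

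The listed enrichment of members was modest, with a short tail of strong peaks. The maximal log2 fold enrichment over input ran from 1.72 to 5.20, with a median of 2.16 and quartiles of 1.95 and 2.52. In 110 members it was under 2, in 151 from 2 to under 2.5, in 60 from 2.5 to under 3, in 22 from 3 to under 4, and in 9 it was 4 or more. The list was ranked by a T statistic that follows this log2 value closely, and the FDR follows the rank. The lowest log2 value with an FDR under 0.05 and the highest one above that limit were both 2.31 among members. Rank, FDR and log2 fold enrichment are thus 1 measure in 3 forms.

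The 15 highest-ranked members belonged to 14 genes. All 15 had a listed FDR of 0. The strongest was the peak at Tmem119, a membrane protein of bone-forming cells and microglia, which stood at rank 16 of the whole list with a log2 fold enrichment of 5.20 (chr5:113800150-113800799 as listed, summit 28 bp downstream of the TSS). A pair of weaker members lay in the same gene, with summits 743 bp and 873 bp downstream, at ranks 12019 and 11513 and an FDR of 0.438 each.

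The members are taken here by what their genes do, and not by rank. At Ephb3, an Eph receptor tyrosine kinase, the log2 value was 4.85 (rank 38), with the summit 77 bp upstream of an internal start that lies 6340 bp from a start of the gene with an island. Cbx5, the heterochromatin protein HP1 alpha, had a log2 value of 4.27 (rank 134) at a summit 31 bp upstream of an internal start, 24464 bp from a start with an island. Il17rd, also known as Sef and an inhibitor of FGF signalling, held a pair of strong members, with log2 values of 4.25 (rank 139) and 4.15 (rank 169). Their summits lay 894 bp upstream and 586 bp downstream of the same internal start, and each had 6 listed peaks within 10 kb, the other of the pair included. That start lies 28141 bp from an Il17rd start with an island.

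Some genes encode proteins of the extracellular matrix or of its processing. Emilin1, an elastin microfibril protein, had a log2 value of 4.33 (rank 114) with the summit 119 bp upstream of the TSS. Mfap4, a microfibril-associated protein, had 4.02 (rank 238) at 28 bp upstream. Frem1, a protein of the embryonic basement membrane zone, had 3.55 (rank 683), and Pcolce, an enhancer of procollagen processing, had 3.54 (rank 689) at a summit 608 bp downstream of the TSS. Col11a1, a cartilage collagen chain, had 3.52 (rank 720) at 47 bp upstream. None of the peaks at Emilin1, Mfap4 and Pcolce held a GLI match with at most 1 mismatch within 250 bp of the summit.

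Of the remaining members among the first 15, Calml4, a calmodulin-like protein, had the highest log2 value with 4.44 (rank 93). Dmtn, an actin-bundling protein, had 4.17 (rank 159). G430095P16Rik, a gene without an assigned function, had 3.60 (rank 610), and Ap1s1, a subunit of a clathrin adaptor complex, had 3.57 (rank 647). Haghl, an enzyme-like protein related to a glyoxalase, closed the set with 3.51 (rank 739) at a summit 2 bp downstream of its start. By the lenient criterion 4 of the 15 peaks also lacked an island, against 79 of all 352 members, namely those at Cbx5, both at Il17rd and that at Pcolce.

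**Figure D1:**
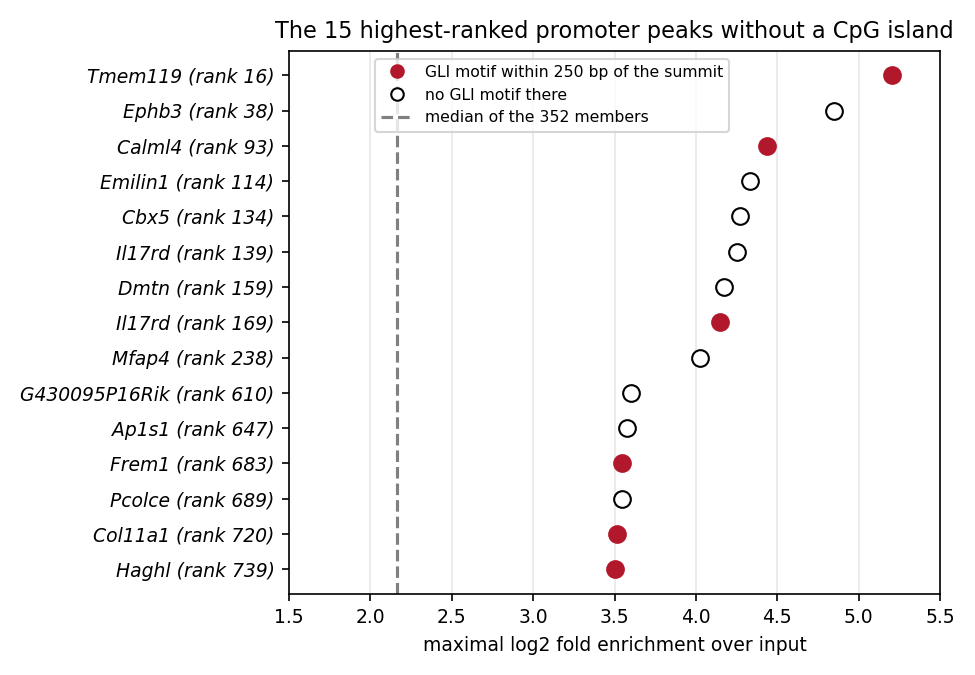
Maximal log2 fold enrichment of ChIP over input (horizontal axis) for the 15 highest-ranked members, 1 point per peak, with the rank in the whole list beside the gene. Filled points mark peaks with a GLI match of at most 1 mismatch within 250 bp of the summit (6 of 15), and the dashed line is the median of all 352 members, 2.16. The values ran from 3.51 at Haghl to 5.20 at Tmem119.

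An FDR under 0.05, the level used for a GLI3 call here, was reached by 131 of 352 members (37.2%, 32.3 to 42.4%), against 42.7% of all autosomal peaks. The share was 46.6% among peaks at island promoters (3039 of 6526), a difference of -9.35 percentage points (95% Newcombe interval -14.4 to -4.05). Members thus passed the limit less often than island promoter peaks. The median log2 fold enrichment of island promoter peaks was 2.27, with quartiles of 2.03 and 2.65, and the middle ranges of both classes overlapped widely. At divergent promoters the median was 2.33, and for peaks over 1 kb from any protein-coding TSS it was 2.19, close to the members. Restricting both classes to peaks of 200 to 500 bp, a comparison added after the data were seen, gave a difference of -5.15 points whose interval included 0. Peak length thus moved with the calls, and its part in the difference was not tested. Keeping only the highest-ranked peak of each gene, also added after the data were seen, gave a difference of -14.4 points (-19.97 to -8.69).

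At the top of the list the classes could not be told apart. Among members 17 of 352 (4.83%) stood within the first 1000 ranks, and among island promoter peaks 396 of 6526 (6.07%), with a difference of -1.24 points (-3.13 to 1.58). The Poisson statistic of the list, which does not follow the rank strictly, had a median −log10 value of 8.45 in members and 10.2 in island promoter peaks, and it reached its ceiling of 100 in 4 members, those at Tmem119, Ephb3, Calml4 and Il17rd (rank 169). The median length was 250 bp in both classes. Peaks of 600 bp or more made up 8.81% of members and 13.3% of island promoter peaks (difference -4.51 points, -7.18 to -0.994).

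**Figure D2:**
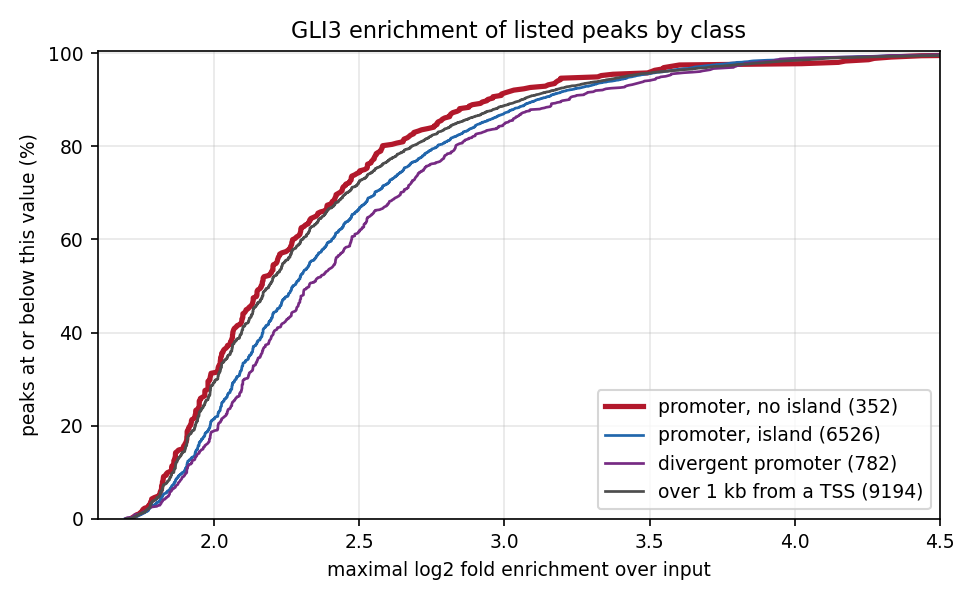
Cumulative share of listed peaks (vertical axis, %) at or below a given maximal log2 fold enrichment (horizontal axis) for members (thick line) and the 3 other autosomal classes, with the number of peaks in brackets. The member curve rises first, with a median of 2.16 against 2.27 for island promoter peaks, and the curves meet in the upper tail. The axis ends at 4.5.

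Summits of members gathered at the TSS as much as those of island promoter peaks did. The median distance to the TSS was 124 bp (quartiles 51 and 304 bp), and 243 summits (69.0%, 64.0 to 73.6%) lay within 250 bp, against 67.5% at island promoters (difference 1.58 points, -3.56 to 6.32). Of the 352 summits 184 lay upstream (52.3%) and 168 downstream, and the share upstream differed from that of island promoters by 3.33 points (-2.02 to 8.64). By the annotation, 161 summits fell in introns of protein-coding genes, 98 in untranslated exon sequence, 75 between genes, 12 in coding exons and 6 in noncoding genes. Just inside the 1 kb limit lay the members at Nat14 (980 bp, log2 1.99), Adamts6 (895 bp, 2.02) and Il17rd (894 bp, 4.25). Just outside it were peaks at Il17rd (1006 bp, 2.63), Smarcd2 (1024 bp, 2.36) and Ccdc8 (1025 bp, 2.83).

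**Figure D3:**
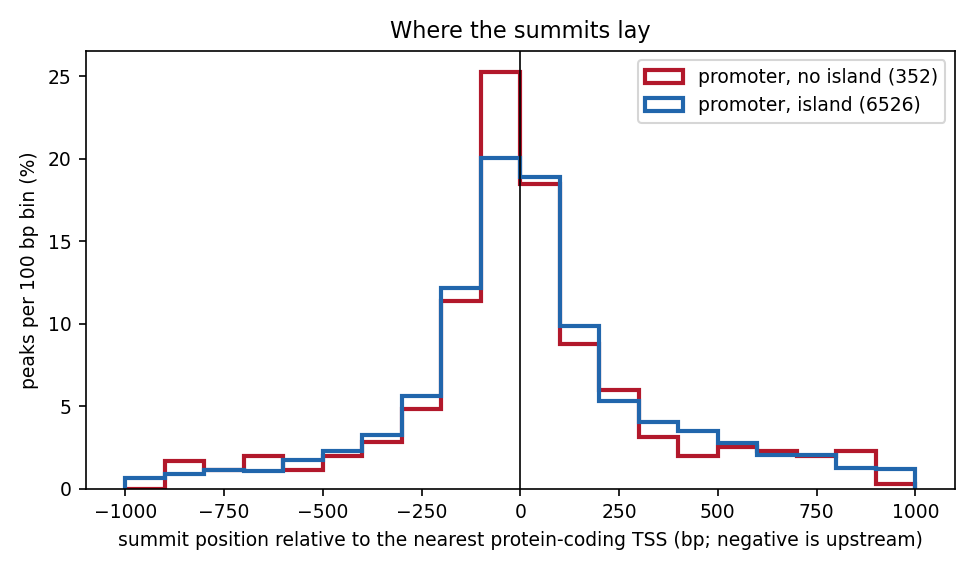
Share of summits per 100 bp bin (vertical axis, %) by their position relative to the nearest protein-coding TSS (horizontal axis, bp, negative upstream) for the 352 members and the 6526 island promoter peaks. Both distributions peak at the TSS, and 69.0% of members and 67.5% of island promoter peaks lie within 250 bp.

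GLI motifs were more common under members than at island promoters and in the sequence around them. A match with at most 1 mismatch lay within 250 bp of the summit in 82 of 352 members (23.3%, 19.2 to 28.0%), including the 12 exact ones. The share was 14.7% in island promoter peaks (961 of 6526), a difference of 8.57 points (4.36 to 13.3), and by the lenient island criterion one of 7.42 points with 0 in its interval (-0.393 to 17.7). In windows 2 kb to either side of the member summits it was 11.2% (79 of 704), a difference of 12.1 points (7.24 to 17.2). Promoters without an island and without a listed peak held a match at 10.7% of 15695 start sites, 12.6 points below the members (interval of the difference 8.42 to 17.3), and all 39516 autosomal protein-coding start sites at 11.6%. Among all autosomal peaks the share was 17.8% (3006 of 16854), 5.46 points below the members (interval of the difference 1.305 to 10.2). Peaks over 1 kb from a TSS held one in 20.1%, and here the difference of 3.17 points had an interval that included 0 (-1.02 to 7.93). The consensus holds no CpG, and the GC content of the window had a median of 54.8% in members and 65.9% in island promoter peaks, a difference that the rule itself sets.

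The exact consensus was also more frequent in members than at island promoters and in the flanking windows. It stood in 3.41% of members, 0.996% of island promoter peaks (65 of 6526), 0.284% of the flanking windows (2 of 704) and 0.363% of non-island start sites without a peak. The difference from the island promoter peaks was 2.41 points (0.94 to 4.88), and that from the flanking windows 3.12 points (1.496 to 5.588). Peaks over 1 kb from a TSS held it in 3.04%, with a difference of 0.364 points (-1.13 to 2.84), and all autosomal peaks in 2.17%, with a difference of 1.24 points (-0.229 to 3.70), and both intervals included 0. In these windows the members held 95 matches with at most 1 mismatch, of which 26 (27.4%, 19.4 to 37.1%) were centred within 50 bp of the summit, where 20.5% of the possible positions lie. Where windows of neighbouring members overlap, as at Chd9 and Plec, the same site was counted more than once, which the interval does not allow for. More than 1 match was found in 11 members.

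Members that passed the FDR limit held a GLI match in 28.2% (37 of 131) and the others in 20.4% (45 of 221), a difference of 7.88 points whose interval included 0 (-1.21 to 17.4). Those that did not pass still differed from their own flanking windows by 8.14 points (2.29 to 14.6, 45 of 221 against 54 of 442). Between summits upstream of the TSS (19.6%) and downstream (27.4%) the difference was -7.82 points (-16.6 to 1.03). Split by the lenient island criterion, a comparison added after the data were seen, 23.4% of the 273 members with a lenient island and 22.8% of the 79 without one held a match. Against start sites of the same kind without a peak the differences were 10.6 points (5.90 to 16.1) and 12.9 points (5.04 to 23.3). Against the flanking windows the difference was 12.8 points (7.37 to 18.7) in the former, while in the latter, 9.49 points, its interval included 0 (-0.499 to 20.8).

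**Figure D4:**
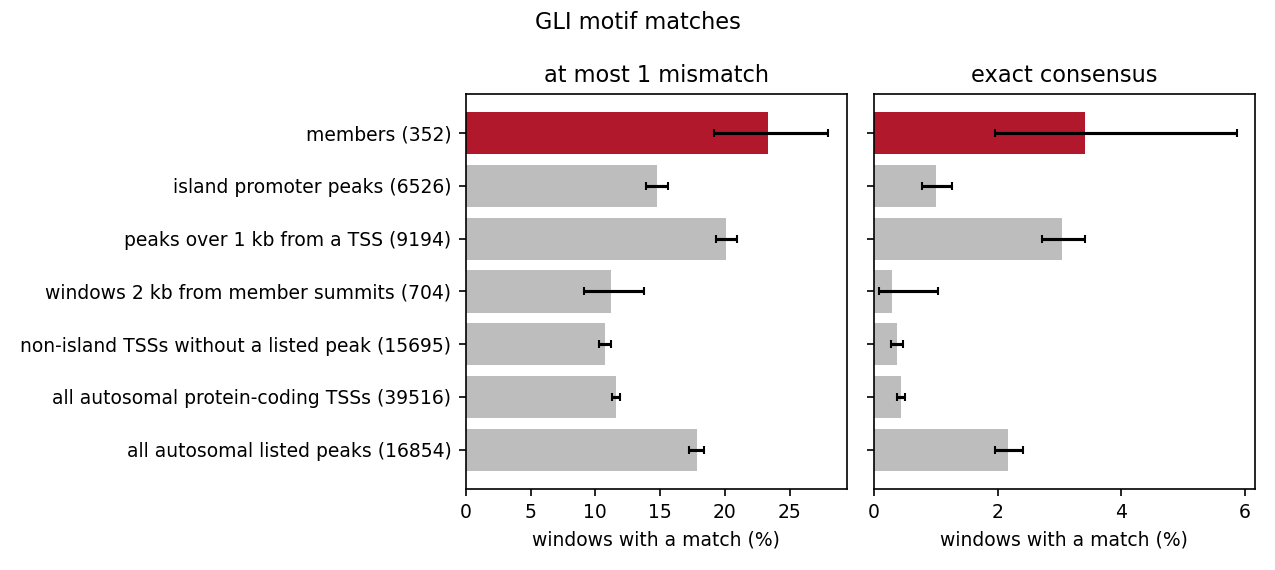
Share of windows reaching 250 bp to either side with a GLI match (horizontal axes, %) with at most 1 mismatch (left) or with the exact consensus (right), and centred on peak summits, on start sites or 2 kb from member summits, with the number of windows in brackets. Bars are shares and lines their 95% Wilson intervals. Members (dark bar) stand at 23.3% and 3.41%, above island promoter peaks at 14.7% and 0.996%.

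Other short motifs were searched on both strands in the same windows, as exact matches, and 13 motifs were compared in all, GLI included, without adjustment for their number. Of these, the SOX motif ACAAAG (31.2% of members against 20.1% of island promoter peaks), the E-box CAGCTG (31.5% against 23.1%), the TEAD motif GGAATG (23.9% against 15.98%) and the homeobox motif TAATTA (7.67% against 2.99%) were more frequent in members than at island promoters, each with an interval of the difference above 0. The rule splits these classes by GC and CpG content (median GC of the window 54.8% and 65.9%), so that shares of AT-rich letters are tied to it, and its part in these differences was not tested. Peaks over 1 kb from a TSS held the homeobox motif more often than members did (20.5%, difference -12.8 points, -15.3 to -9.47), as did non-island start sites without a peak (11.8%, -4.14 points, -6.54 to -0.839). The SOX (35.5%), E-box (34.4%) and TEAD (27.7%) shares of peaks over 1 kb from a TSS differed from those of members by amounts whose intervals included 0. So did the shares of non-island start sites without a peak (34.99%, 29.8% and 25.8%) and of all autosomal peaks (28.5%, 29.3% and 22.5%). The homeobox motif was found in 12.6% of all autosomal peaks, above the members (difference -4.92 points, -7.32 to -1.62). Against the windows 2 kb away, the SOX, TEAD and homeobox shares did not differ beyond their intervals, and those windows held the GATA motif AGATAA (24.6% against 9.09% of members) and the AP-1 site TGANTCA (16.3% against 9.94%) more often. The E-box was more frequent at the summits than 2 kb away, by 9.09 points (3.45 to 14.9). The same held for the CACCC box CCACCC, which overlaps the GLI consensus, with 63.6% against 36.5%, for the ETS core GGAAG, by 7.67 points (3.19 to 11.7), and for the CRE TGACGTCA, by 1.56 points (0.253 to 3.64). Of the other motifs, CCAAT, the AP-1 site, the GATA motif and the PBX site TGATTGAT were also more frequent in members than at island promoters. Their differences were 6.69, 5.33, 3.39 and 0.991 points. These too are between classes that the rule splits by GC and CpG content, and the part of that split was not tested. For the ETS core, the CRE and the CACCC box the interval included 0. Non-island start sites without a peak held the GATA motif in 23.9%, the AP-1 site in 14.4% and CCAAT in 52.1%, all above the members. For CCAAT the difference was -6.69 points (-11.9 to -1.41). All autosomal start sites held these motifs in 24.7% (SOX), 26.0% (E-box), 19.8% (TEAD), 6.28% (homeobox), 13.9% (GATA), 47.1% (CACCC box), 46.4% (CCAAT), 9.26% (AP-1), 0.876% (PBX), 86.7% (ETS) and 2.51% (CRE).

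The GC box GGGCGG, the site of SP factors, was found in 48.0% of members, 82.5% of island promoter peaks and 17.0% of non-island start sites without a peak. It holds a CpG, so that its share is tied to the rule. Among all autosomal start sites it was found in 54.6%. The share in members stood between those of island promoter peaks and of non-island start sites without a listed peak.

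TATA boxes, which often accompany promoters without an island, were rare. The letters TATAAA began between 40 and 15 bp upstream of the TSS, on its strand, at 6 of 352 members (1.70%, 0.784 to 3.67%), against 3.76% of the non-island start sites without a listed peak (590 of 15695) and 1.98% of all autosomal start sites. The difference from the former was -2.06 points, with an interval of -3.03 to -0.07. With peaks of FDR under 0.05 only it was -1.41 points and its interval included 0 (-2.95 to 2.83). With TATAA in place of TATAAA it was -3.72 points (-5.07 to -1.38), and with gene 5′ ends only -5.28 points (-5.79 to -3.77). The 6 members lay at 4 start sites, since 3 of them shared the start of Palld, an actin-associated protein. The 4 sites are shown with the TATA letters in capitals and on the strand of the gene. They were named after their values were seen.
Magi1: tcgccagtgaTATAAAaggcgcaagc
Palld: tgcttggcgcTATAAAgcgggggtac
Ankrd28: tattactaacTATAAAaccagcggca
Sdr42e1: tgacataattTATAAAcaaattgtag

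These lay at chr6:93913569-93913594, chr8:61591155-61591180, chr14:31780394-31780419 and chr8:117671562-117671587, all on the minus strand, and their TATA letters began 30, 28, 16 and 30 bp upstream of the start. All 4 were internal starts, over 1 kb from the 5′ end of the gene. Of the 6 members 3 had an FDR under 0.05, 1 at Magi1 and 2 at Palld, against 131 of all 352 members (37.2%).

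Some genes with a member also had a start at an island. The start next to the summit lay within 1 kb of the 5′ end of its gene in 263 of 352 members (74.7%). In 76 members (21.6%, 17.6 to 26.2%) another start of the same gene, over 1 kb away, had a CpG island, against 12.9% of island promoter peaks (difference 8.67 points, 4.61 to 13.3). By the lenient island criterion the share of members was 50% (40 of 80). The distance to the nearest such start had a median of 33.8 kb, and ran from 1.5 to 370 kb. Ephb3, Cbx5, Il17rd and Dmtn belonged to these, as did Pth1r, the receptor of parathyroid hormone-related protein in growth plate cartilage (rank 978, log2 3.37), whose island start lay 3436 bp away. An FDR under 0.05 was found in 44.7% of the 76 and in 35.1% of the other 276, a difference of 9.59 points that included 0 in its interval (-2.54 to 22.0). Their GLI match shares were 23.7% and 23.2%, a difference of 0.496 points (-9.24 to 12.1).

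Members stood alone more often than island promoter peaks did. Another listed peak lay within 10 kb of the summit in 140 of 352 members (39.8%, 34.8 to 44.97%) and in 53.1% of island promoter peaks, a difference of -13.3 points (-18.5 to -8.00). A higher-ranked peak lay that close in 81 members (23.01%). Of the 306 genes 267 held 1 member and 39 held 2 or 3. Among the latter were Stra6, the retinol-binding protein receptor (ranks 2358, 3115 and 8833), Lrp1, a large endocytic receptor (ranks 1977 and 2909), and Mical1, an actin-oxidising enzyme (ranks 3658, 3660 and 10847), all chosen for this count after it was seen. The summit lay in repeat sequence, as marked in the genome file, in 38 members (10.8%, 7.97 to 14.5%), against 7.12% of island promoter peaks (difference 3.67 points, 0.768 to 7.39). Among all autosomal peaks the share was 8.97%, inside the member interval, and among peaks over 1 kb from a TSS it was 10.45%.

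Seen from the side of the promoters, a listed GLI3 peak was uncommon where there was no island. Start sites of 1 gene within 1 kb of each other were joined to 1 promoter. Of 12455 non-island promoters 311 (2.497%, 2.24 to 2.79%) had a summit within 1 kb, of 11359 island promoters 5113 (45.01%) and of 2266 divergent ones 1257 (55.5%), against 25.6% of all autosomal promoters. With peaks of FDR under 0.05 only, the share of non-island promoters was 1.02%, and that of island promoters 24.5%. Within the non-island promoters the share differed with CpG content. It was 6.59% (240 of 3641) where the lenient criterion found an island and 0.806% (71 of 8814) where it did not, a difference of 5.79 points (4.997 to 6.655).

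The kinds of gene with a GLI3 peak at a non-island promoter were read from 22 lists, of which 12 held a member, and 63 of the 352 members belonged to at least 1 list. The lists were chosen with earlier results of these data known, so their shares are a description only. The list of collagens and other genes of the extracellular matrix, which does not hold every such gene, had a listed peak at 5 of 36 non-island promoters (13.9%, 6.08 to 28.7%). The share over all non-island promoters was 2.497%, or 3.14% without olfactory, vomeronasal and taste receptors. Of the 5, 4 had an FDR under 0.05, against 127 of the 311 non-island promoters with a peak. The 5 were Emilin1, Mfap4, Pcolce, Col1a2, a chain of type I collagen (rank 6044, log2 2.42, FDR 0.0208), and Dcn, the proteoglycan decorin (rank 13733, log2 1.95, FDR 0.727). Their 6 members had a median log2 value of 2.98, against 2.16 over all members. Matrix genes outside the list were also members, such as Frem1 and Col16a1 (rank 9725, log2 2.16, FDR 0.148), the latter named after its values were seen. Serpinh1, the collagen chaperone HSP47, was counted with the serpins and not here (rank 2089, log2 2.99). A second member in Serpinh1, 656 bp downstream, had a log2 value of 2.02 (rank 12378). Cartilage and bone genes had a peak at 3 of 27 non-island promoters, those of Col11a1, Pth1r and Sox5. Of these 3, 2 passed an FDR of 0.05, against 127 of the 311 over all non-island promoters. Sox5, a cartilage transcription factor, held 2 members with log2 values of 2.22 and 1.98, neither of which passed.

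Genes of the Hedgehog pathway and limb patterning mostly have islands, and few could be members. Disp1, which is needed to release Hedgehog ligands and was not on the list used here (it was named after its values were seen), had a member with a log2 value of 2.55 (rank 4766, FDR 0.00706), 282 bp upstream of an internal start. Of 5 non-island promoters in the list of Hedgehog genes and limb targets 1 had a peak, that of Fmn1, whose gene holds limb enhancers of its neighbour Grem1. The Fmn1 peak (chr2:113440400-113440599 as listed) lay upstream of an internal start with a log2 value of 2.23 and an FDR of 0.133, at rank 8410, and held a GLI match with 1 mismatch 139 bp from the summit. Among limb mesenchyme transcription factors 1 of 11 non-island promoters had a peak. In the same lists 28 of 43 and 38 of 53 island promoters had a listed peak, against 45.01% of all island promoters.

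Lists of other cell types held too few non-island promoters to be set apart from the share over all of them. The counts were 0 of 13 for the apical ridge and surface ectoderm (upper bound of the interval 22.8%), 0 of 27 for erythroid genes (12.5%), 0 of 23 for endothelium (14.3%), 0 of 52 for muscle and contractile proteins (6.88%), and 0 of 42 for macrophages and other immune cells (8.38%), and each of these bounds lies above 2.497%. Neural and neural crest genes had 0 of 14. Secreted ligands of the WNT, FGF, BMP and TGF families had 0 of 27. By contrast, olfactory, vomeronasal and taste receptors had 0 of 2553, with an upper bound of 0.150% that lies below 2.497%. Without these receptors the share over all non-island promoters was 3.14% (311 of 9902). Genes of ribosomal and mitochondrial respiratory proteins had 0 of 29, immediate-early genes 0 of 2, and histone genes 0 of 3.

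Among large gene families, zinc finger genes named Zfp had the highest share, with a peak at 13 of 259 non-island promoters (5.02%, 2.96 to 8.40%). This interval includes the 3.14% found without the olfactory and related receptors. Of the 16 Zfp members 5 had an FDR under 0.05, against 131 of all 352 members (37.2%). The highest were Zfp260 (rank 759, log2 3.49) and Zfp13 (log2 2.78). Solute carriers had 6 of 196 (3.06%), with Slc26a5, the motor protein prestin (rank 6404, log2 2.39), and Slc8a2, a sodium/calcium exchanger (rank 7574, log2 2.30), at the top. Chemokines, cytokines and interferon-induced genes had 4 of 132 (3.03%), led by Ifitm2 (log2 2.49, FDR 0.0114) and Ifitm1 (log2 2.27, FDR 0.0704). Cytochrome P450, UGT and GST enzymes had 4 of 157 (2.55%), with Gstm1 (log2 2.203) and Gsta4 (1.95) highest and none with an FDR under 0.05. Serpins, kallikreins and trypsins had 2 of 134, predicted and Rik genes 14 of 1475 (0.949%), with G430095P16Rik and B230217C12Rik (log2 3.03) highest, and keratins and related proteins 1 of 151, at Krtap14 (log2 1.73, FDR listed as 1).

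**Figure D5:**
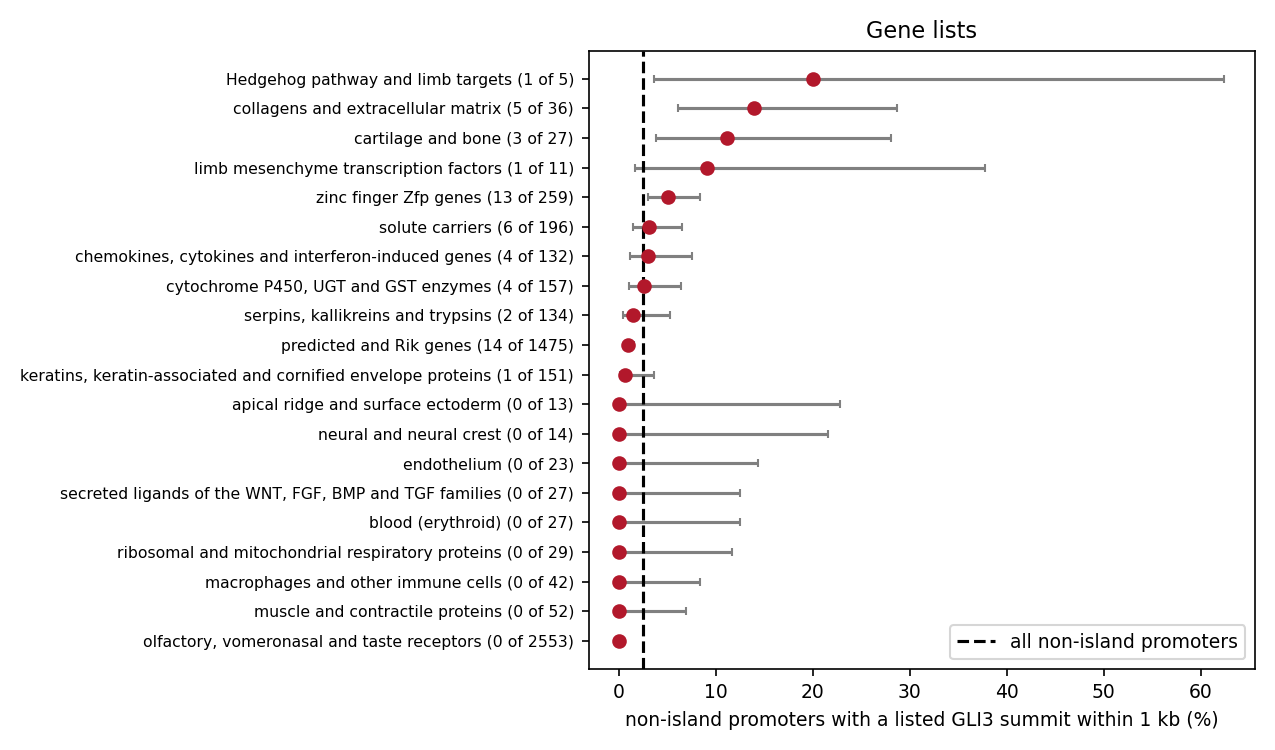
Share of non-island promoters with a listed GLI3 summit within 1 kb (horizontal axis, %) for the 20 gene lists with 5 or more such promoters, with the counts in brackets. Points are shares, lines their 95% Wilson intervals, and the dashed line the share over all non-island promoters, 2.497%. The intervals of the Hedgehog list (1 of 5 promoters), the extracellular matrix list (13.9%), the cartilage and bone list and the zinc finger Zfp genes (5.02%) lie above the dashed line, and those of the olfactory and related receptors (0 of 2553) and of predicted and Rik genes (0.949%) below it. Without the olfactory and related receptors the line would stand at 3.14%, inside the Zfp interval.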

How the data were processed

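The submitters' processing notes name Bowtie2 (2.2.5) and mm10, and the study's methods name CisGenome as the peak caller. The roles of these tools beyond that and the filters on reads are not given in the sources used here. For each peak the deposited list gives an FDR, a q-value computed by the authors' caller. It also gives the maximal log2 fold enrichment of ChIP over input as deposited by the authors, a T statistic, which is a score the authors ranked by, and a Poisson p-value on the −log10 scale, deposited with a ceiling of 100. These were used as deposited. The list was taken as a joint call from both replicates, with no value per replicate, and it was not cut at an FDR. Peak coordinates are printed as in the list, whose starts appear to count from 0, and those of printed sequences count from 1. The 295 peaks outside the autosomes were not used.

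Start sites were those of protein-coding transcripts of GENCODE M21 (basic set), and the TSS nearest to the summit decided the class. Genome sequence was GRCm38.p6. GLI motifs were matches to GACCACCCA on either strand with at most 1 mismatch within 250 bp of the summit. Shares carry 95% Wilson intervals and differences 95% Newcombe intervals, and a difference was counted as present when its interval lay on 1 side of 0. No p-value was computed, because the list holds no replicate values, and intervals treat peaks as independent. The functions were tested on simulated data with planted islands and motifs. Named genes were those of the 15 highest-ranked members, the 10 highest-ranked with an exact GLI match, the 2 highest-ranked of each gene list and those at the 1 kb limit. Some items that this rule names are not reported here. Members, gene lists and tests were chosen with earlier results of these data known. Python 3.11.15, numpy 2.4.6, pandas 2.3.3, scipy 1.17.1 and pysam 0.24.0 were used.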

Additional observations from a re-analysis of the deposited data

How the results depend on the processing

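No paired analysis was possible because the peak table gives 1 value per region and none per replicate, and for the same reason no replicate could be left out. The 13 results were recomputed under 56 alternatives, of which 7 were chosen after seeing the data. In 38 the result kept its direction and its side of the threshold or moved little, in 14 a value moved, in 4 a difference kept its direction while its interval came to include 0, and none turned. The lenient island criterion left 80 members (79 of them among the 352) and gave a GLI difference of 7.42 points from island promoter peaks and 9.38 points from the flanking windows, both with 0 inside the interval. It also gave 0.815% of non-island promoters with a peak and 50% of members with an island start elsewhere. With peaks of FDR under 0.05 only, 131 members remained by construction, with a median log2 of 2.65, a GLI share of 28.2%, 1.02% of non-island promoters with a peak, a TATA difference of -1.41 points (0 inside the interval) and 32.1% with another such peak within 10 kb. At an FDR under 0.01, 25% of members passed. With peaks of 200 to 500 bp the difference in FDR calls was -5.15 points (0 inside the interval). The GLI share was 3.41% for the exact consensus and 13.9% within 100 bp of the summit. A summit limit of 500 bp gave 2.22% of non-island promoters with a peak, gene 5′ ends only gave 0 members with a TATA box, and a 5 kb limit gave 33.8% with a neighbour. Where no construction accounts for it, the cause was not tested. The depth of the libraries, which limits how many weak promoter peaks could be listed, is known only as a minimum stated in the methods.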
